A study of Homo sapiens with 4 samples.

Results

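The mock cells of this series were cells labelled A549, a human lung adenocarcinoma line, that received the transfection reagent Lipofectamine RNAiMAX and no miRNA, and the genes they expressed or lacked are described here. They were measured on 2 of the 4 one-color Agilent arrays of the series, mock 1 and mock 2. The other 2 arrays held cells labelled with the same line and grown in the same medium, 1 transfected with *miR-486-5p* and 1 with *miR-486-3p*, and their values are given only beside those of the mock cells. The labels give neither the dose nor the time for these arrays, and they do not say whether the mock arrays came from separate cultures. All 4 arrays lay on 1 slide and carried 1 scan time, and the batches of culture, RNA extraction and labeling are not given for them.

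A probe was a member when the scanner software called its signal well above background on mock 1 and on mock 2, which 29992 of 58201 probes were. Through RefSeq accessions, 31104 probes were named for 22439 genes, and 15558 of these genes (69.3%) had at least 1 member probe. Another 6367 genes (28.4%) had no probe well above background on either mock array, and the remaining 514 fell between, for example with a call on 1 mock array only. A gene's level is the mean of the deposited log2 values of its member probes on mock 1 and mock 2. Levels ran from 2.25 to 16.72 with a median of 6.92 and quartiles of 5.07 and 8.88. Probes bind their targets to different degrees, so ranks by level order array signals and not amounts of transcript. A probe that was not well above background gives only an upper bound. Less RNA per cell and fewer cells with that RNA cannot be told apart in such samples. With 1 group of 2 arrays no test was possible, and all values are descriptions.

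A549 is widely used as a model of lung adenocarcinoma with a resemblance to alveolar type II cells. The line is known to have lost the tumor suppressors *STK11* and *KEAP1* by mutation and *CDKN2A* by a homozygous deletion at 9p21. Without KEAP1, the transcription factor NRF2 is not degraded, and the line is known for abundant aldo-keto reductases and aldehyde dehydrogenases and for E-cadherin at its cell contacts.

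These features were set against the arrays first, and several of them were not found. *CDKN2A*, which encodes the cell cycle inhibitors p16 and p14ARF, had values of 12.68 on mock 1 and 12.63 on mock 2 with one probe and of 10.17 and 10.22 with the other. It ranked 965 of 15558 genes, and its probes were well above background on the transfected arrays as well, at 12.23 and 9.95 with *miR-486-5p* and 10.78 and 7.97 with *miR-486-3p*. Of the 6 genes listed at 9p21, 5 were members, with a level of 8.21 for *MTAP*, an enzyme of methionine salvage measured with 3 probes, and of 5.89 for the inhibitor gene *CDKN2B*. *ELAVL2*, further along the same arm, was not well above background on either mock array (0.00 on both).

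*CDH1*, which encodes E-cadherin, was not well above background on any of the 4 arrays. Its probe was spotted 10 times on each array, and 0 of the 10 spots was well above background on mock 1, mock 2 or either transfected array. The scanner software marked 4 of the 10 spots as outliers on mock 1, 1 with *miR-486-5p*, and 0 on mock 2 and with *miR-486-3p*. The deposited values were 0.14 on mock 1 and 0.07 on mock 2. *AKR1B10*, an aldo-keto reductase driven by NRF2, was not well above background with either probe, at 0.76 and 0.00 on mock 1 and 0.16 and 0.00 on mock 2. *AKR1C1* had a level of 4.46 and *AKR1C3* of 3.36, both in the lowest 20% of the genes detected. For *ALDH1A1* and *ALDH3A1*, which oxidize aldehydes, only 1 of 2 probes was a member, at 3.34 and 3.32 for *ALDH1A1* and 3.53 and 4.16 for *ALDH3A1* on mock 1 and mock 2. *NQO1*, a quinone reductase and a standard readout of NRF2, lay near the median, at 6.96 and 6.93. *STK11* and *KEAP1*, known to be mutated in A549, were detected at a level of 9.78 and 9.49, and expression arrays do not report their mutations.

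The 2 mock arrays and the transfected arrays thus shared a signal for *CDKN2A*, which is known to be deleted in A549, and had none well above background for *CDH1*, which the line is known to express. Why the arrays and the label differ was not tested, and the cells are called mock cells throughout.

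**Figure D1:**
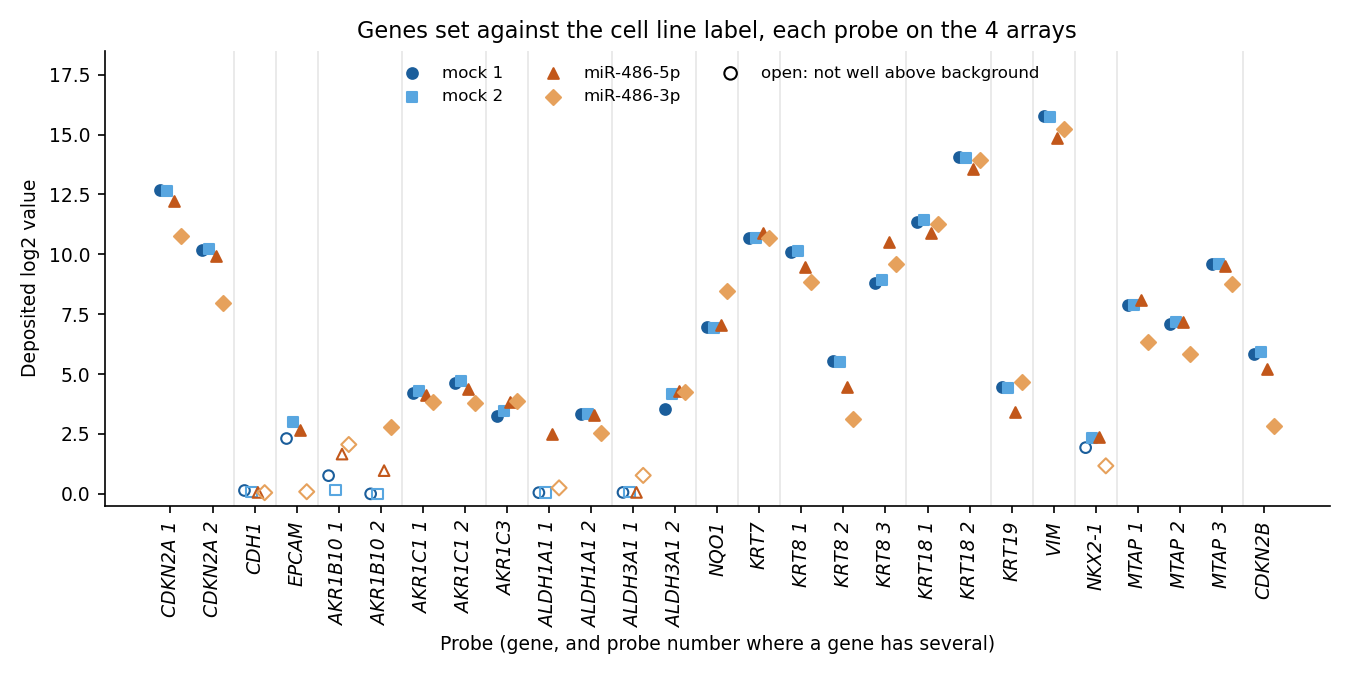
Deposited log2 values (vertical axis) of each probe of 17 genes set against the A549 label (horizontal axis) on mock 1, mock 2 and the 2 transfected arrays, with open symbols where a probe was not well above background. The *CDKN2A* probes lie between 10.17 and 12.68 on the mock arrays and the *CDH1* probe at or below 0.14.

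The windows from 250 bases before to 50 bases after the annotated start are shown for 2 genes with a high signal, *CDKN2A* and *VIM*, and for 2 genes not well above background on either array, the epithelial regulator *ELF3* and the liver gene *ALB*. They were chosen as examples for the comparison of CpG content between genes detected and not detected, described with the promoter results. They come from the RefSeq table for GRCh38.p14, read 5′ to 3′ on the strand of the gene, and capitals mark CpG dinucleotides. *CDKN2A* has 2 starts in the table, both shown, and *CDH1* has no entry.

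CDKN2A start 1 (chr9:21995275-21995574, - strand): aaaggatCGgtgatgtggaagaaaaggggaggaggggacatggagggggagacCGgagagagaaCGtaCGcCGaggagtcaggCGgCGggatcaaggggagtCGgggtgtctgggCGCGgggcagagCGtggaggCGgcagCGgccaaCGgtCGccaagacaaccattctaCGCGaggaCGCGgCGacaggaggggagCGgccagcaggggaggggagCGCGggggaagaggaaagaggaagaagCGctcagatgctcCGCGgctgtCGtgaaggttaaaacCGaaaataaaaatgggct
CDKN2A start 2 (chr9:21974808-21975107, - strand): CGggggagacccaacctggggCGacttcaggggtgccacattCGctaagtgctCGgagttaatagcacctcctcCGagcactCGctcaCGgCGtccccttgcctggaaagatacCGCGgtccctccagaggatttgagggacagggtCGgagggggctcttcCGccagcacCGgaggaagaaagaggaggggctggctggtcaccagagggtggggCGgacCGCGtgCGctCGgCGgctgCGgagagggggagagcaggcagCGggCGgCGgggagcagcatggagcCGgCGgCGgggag
VIM (chr10:17227991-17228290, + strand): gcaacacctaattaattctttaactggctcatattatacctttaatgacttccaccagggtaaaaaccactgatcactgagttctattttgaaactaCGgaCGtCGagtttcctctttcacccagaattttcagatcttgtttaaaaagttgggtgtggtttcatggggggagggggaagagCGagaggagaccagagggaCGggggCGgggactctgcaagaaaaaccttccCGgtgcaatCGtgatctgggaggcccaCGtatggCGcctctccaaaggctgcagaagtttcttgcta
ELF3 (chr1:202010337-202010636, + strand): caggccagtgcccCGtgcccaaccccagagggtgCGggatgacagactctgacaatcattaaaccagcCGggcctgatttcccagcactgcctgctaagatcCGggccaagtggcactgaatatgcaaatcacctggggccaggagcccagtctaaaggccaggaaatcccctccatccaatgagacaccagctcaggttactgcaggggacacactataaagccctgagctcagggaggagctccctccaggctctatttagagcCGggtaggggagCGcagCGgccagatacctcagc
ALB (chr4:73404037-73404336, + strand): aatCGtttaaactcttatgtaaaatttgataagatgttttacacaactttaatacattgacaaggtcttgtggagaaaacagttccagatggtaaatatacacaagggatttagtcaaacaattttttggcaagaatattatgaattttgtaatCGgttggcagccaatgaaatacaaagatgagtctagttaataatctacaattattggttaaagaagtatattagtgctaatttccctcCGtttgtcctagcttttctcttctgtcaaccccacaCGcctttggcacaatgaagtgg

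These windows held 28 and 26 CpG dinucleotides at the *CDKN2A* starts and 10 at *VIM*, against 7 at *ELF3* and 4 at *ALB*. As a ratio of the observed to the expected number these were 1.13 and 0.76, 0.58, 0.27 and 0.48. *VIM* thus lay below the limit of 0.6 used with the promoter results, as did *ELF3* and *ALB*, and it does not show the difference by that limit.

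Small noncoding RNAs, the 28S ribosomal RNA and ribosomal protein genes were among the highest signals. The highest of all was *SNAR-A3*, a primate-specific small noncoding RNA, at 16.72 on both mock arrays, and its relatives *SNAR-B2* (16.31 and 16.26) and *SNAR-D* (15.98 and 15.96) ranked 5 and 14. *RNA28SN5*, the 28S ribosomal RNA, followed at 16.69 and 16.66. The ribosomal protein genes *RPLP1* (16.18 and 16.08) and *RPL41* (16.12 and 16.04) and *RNU4ATAC* (16.07 and 16.03), a small nuclear RNA of the minor spliceosome, were also among the 15 highest. The SNAR genes are closely related copies, so a probe for one may bind the others and their levels are uncertain.

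A further 7 of the 15 were protein or uncharacterized genes, and 4 of them rested on 1 bright probe among several. *PTK6*, a tyrosine kinase of epithelia, had 1 probe at 16.43 and 16.50 and another at 2.04 and 1.68. *FUT6*, a fucosyltransferase, had 1 probe at 16.19 and 16.34 and another listed at 0.00 on both. *SLC16A12*, a transporter, had 1 probe at 16.04 and 16.18 and 2 listed at 0.00. *AS3MT*, an arsenic methyltransferase, had 1 probe at 15.93 and 15.99 and another at 0.24 and 0.27. The level of these 4 genes therefore depends on which probe is read. *SLC66A1*, a lysosomal amino acid transporter (16.44 on both), *FAM74A4* (16.10 and 16.19) and *CYP2W1*, a cytochrome P450 (15.92 and 16.07), had 1 probe each, without a second to compare.

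Such disagreement was not confined to the top. Of the 5267 genes detected that had several probes, 2331 (44.3%) had probes more than 3 log2 units apart and 855 (16.2%) had probes more than 5 apart, with a median range of 2.71. Probes that were not well above background entered at their listed values, so these ranges are not exact distances. Of the 100 highest genes, 43 were cytosolic ribosomal proteins, 1 was a replication-dependent histone gene and 6 had a probe that was not a member. Of the 15558 genes detected, 14157 had every probe well above background and 1401 did not.

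Genes of the basic machinery of a growing cell were detected throughout. All 79 cytosolic ribosomal protein genes were members, with a median level of 14.84, and 75 of them were in the top 20%. The lowest was *RPL3L*, a form of striated muscle, at 4.59. All 14 subunits of the 20S proteasome were members, with a median of 12.33 and *PSMB1* highest at 14.49. Of 64 replication-dependent histone genes, 63 were members, led by *H4C3* (15.99 and 15.91). The 12 housekeeping genes had a median of 13.68, from 8.89 for *TBP* to 15.49 for the tubulin gene *TUBA1B*, and differed between the mock arrays by at most 0.05. *GAPDH* had values of 15.24 and 15.22 and *ACTB* of 14.09 and 14.07.

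All 18 cell cycle genes with a matched probe were members, with a median of 9.88 and 11 of the 18 in the top 20%. The replication helicase subunit *MCM3* was the highest by mean level, at 12.06 and 11.95, with *MCM7* at 11.89 and 11.90 and *MCM6* at 11.53 and 11.58. *MCM7* had 1 probe at 14.52 and 14.54 and another at 9.25 and 9.26, so this order depends on which probe is read. The mitotic genes *CCNB1* (11.26 and 11.23, from probes at 12.75 and 9.76 on mock 1) and *AURKA* (10.69 and 10.68) were close behind. The proliferation marker *MKI67* had 7.94 and 7.89 over 3 probes. *CDK4* (11.72 and 11.78) and *CDK6* (11.72 and 11.59), the kinases that p16 inhibits, and *RB1* (9.63 and 9.52), which they phosphorylate, were members.

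Among genes of the stress and nutrient responses, the cholesterol synthesis pathway stood high. All 12 of its genes were members, with a median of 11.03, and 11 of the 12 were in the top 20%. *FDPS*, which makes farnesyl diphosphate, was at 14.33 on both mock arrays and *SQLE* at a level of 12.11. *SC5D* was the exception at 4.88 and 4.73.

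All 12 genes of the ATF4 and unfolded protein responses were members, with a median of 9.79. *ATF4* itself had 14.67 and 14.60, and its targets *ASNS*, which makes asparagine, and *PSAT1*, of serine synthesis, had 13.97 and 13.99 and 12.63 and 12.67. All 10 heat shock genes were members, with the mitochondrial chaperones *HSPD1* (14.98 and 14.86) and *HSPE1* (14.65 and 14.58) highest. All 8 genes listed for YAP, the effector of the Hippo pathway, were members, from 3.65 and 3.78 for *ANKRD1* to 13.55 and 13.51 for *CCN1*.

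Of 14 genes of hypoxia and glycolysis, 12 were members (85.7%, beside 69.3% of all genes). *PGK1* (13.77 and 13.74), *ENO1* (13.31 and 13.43) and *LDHA* (12.21 and 12.24), enzymes of glycolysis and lactate production, were the highest. The 2 that were not well above background were *CA9*, a carbonic anhydrase induced by hypoxia (0.00 on both), and *EGLN3*, an oxygen sensor (0.16 and 0.09). Of 12 immediate early genes 10 were members (83.3%), with *IER2* at 14.19 and 14.21 and *EGR1* at 9.35 and 9.30, while *EGR2* and *EGR3* were not.

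**Figure D2:**
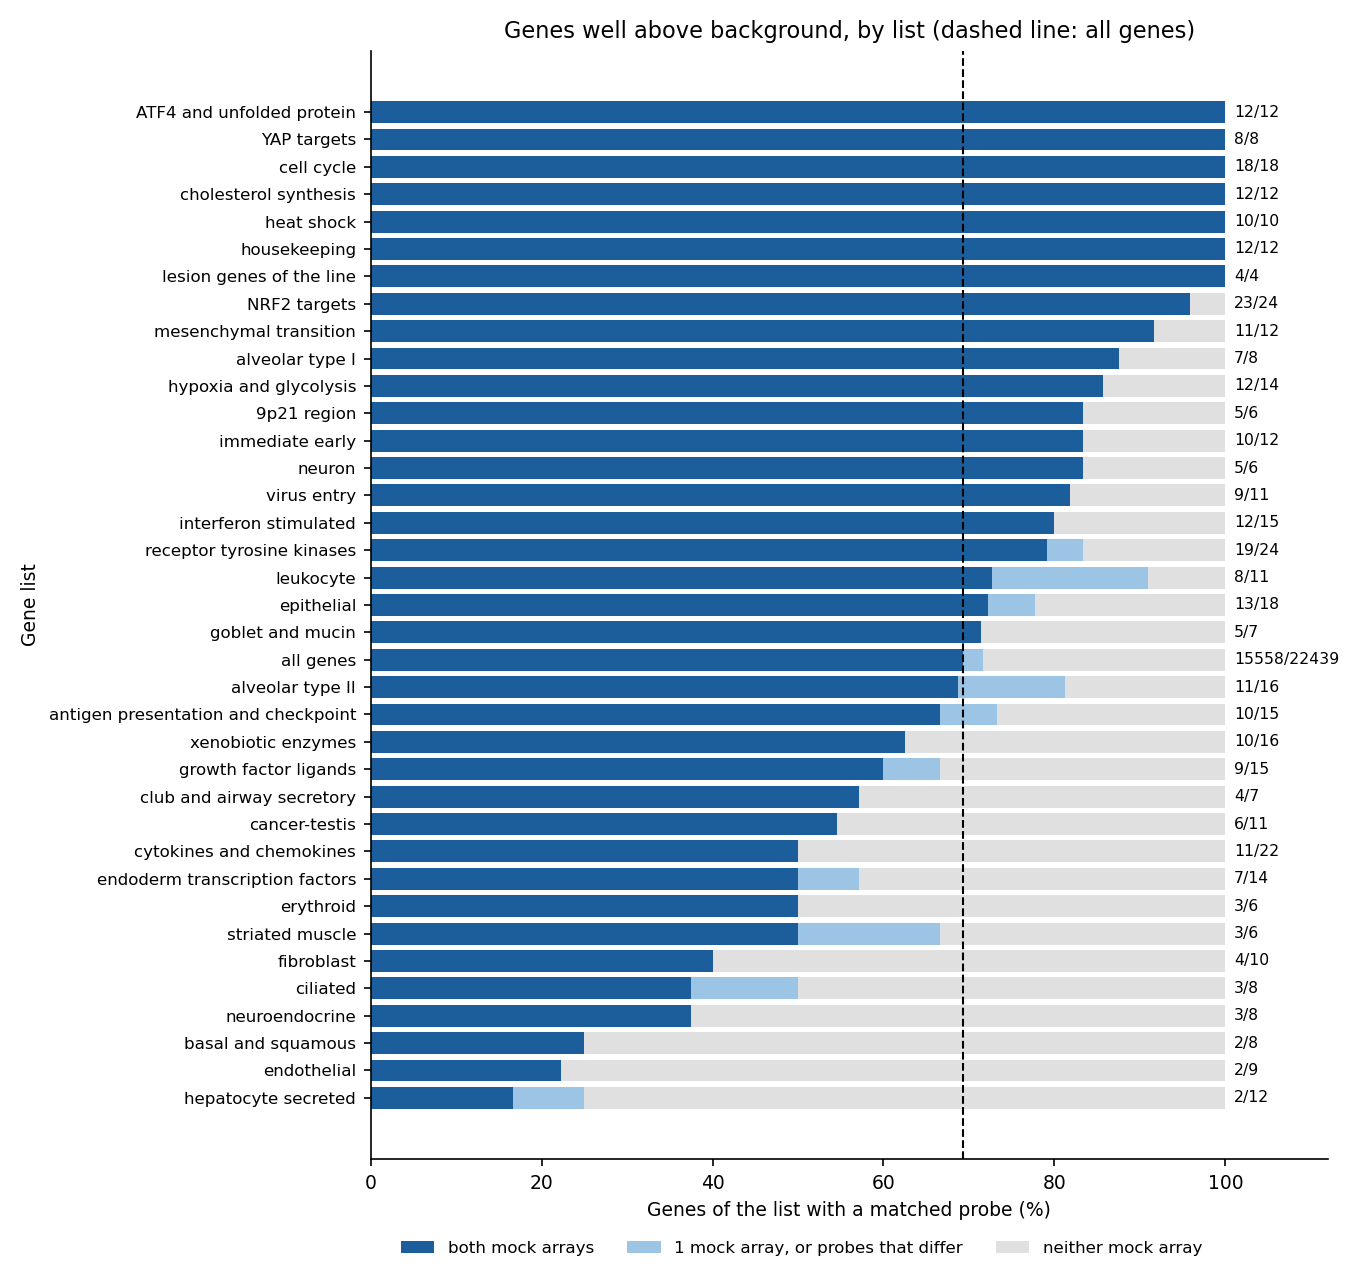
Share of each gene list (vertical axis) that was called on both mock arrays, on 1 of them or unclear, and on neither (horizontal axis, percent of the genes with a matched probe), with the count at the right and the share over all 22439 genes, 69.3%, as a dashed line. Lists of the basic machinery reach 100%, and the hepatocyte, endothelial and basal lists lie lowest, at 2 of 12, 2 of 9 and 2 of 8 genes.

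Markers of the alveolar epithelium were mixed. Of 16 genes of alveolar type II cells 11 were members, a share of 68.8% beside 69.3% of all genes, and none was in the top 20%. The surfactant protein gene *SFTPB* was not well above background with either probe (mean 0.19 on mock 1 and 0.17 on mock 2), nor were *SFTPA1* (1.47 and 1.62) and the phosphate transporter *SLC34A2* (0.00 on both). *SFTPC*, the gene most particular to these cells, was dim at 3.83 and 3.68. *SFTPA2* had 1 probe at 8.98 and 9.19 and the other listed at 0.00. *NKX2-1*, the lineage transcription factor of the distal lung, was called on mock 2 only (1.93 and 2.32), as was *SFTPD* (1.94 and 2.30). *ABCA3*, the lipid transporter of lamellar bodies (8.02 and 8.13), *ETV5* (7.85 and 7.75) and *LAMP3* (6.98 and 6.88) were brighter. With every probe required to be well above background, a count added after the data were seen, 7 of the 16 were members.

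Of 8 genes of alveolar type I cells 7 were members (87.5%, beside 69.3% of all genes). *CAV1*, which forms caveolae, had 11.39 and 11.35 over 2 probes, but *PDPN* was not well above background (0.00 and 1.03), *CLIC5* had 1 of 3 probes bright (11.59 and 11.62) with the others at 0.01 or less, and *AGER* had 1 of 3 probes on both arrays (6.70 and 6.77). With every probe required, 4 of the 8 were members. Among airway genes, the secretoglobin *SCGB3A1* was bright with its single probe (11.54 and 11.55), *SCGB1A1*, which marks club cells, had 5.19 and 5.18, and *CYP2F1*, *BPIFB1* and *MUC5B* were not well above background. Of 8 ciliated cell genes 3 were members (37.5%), and *FOXJ1*, the regulator of motile cilia, was not well above background (0.00 and 1.87). Of 8 basal and squamous genes 2 were members, the keratin *KRT15* (9.16 and 9.26) and *SOX2* (6.32 and 6.40), while *KRT5*, *KRT6A*, *KRT14* and *TP63* were between 0.00 and 0.76. Of 8 neuroendocrine genes 3 were members (37.5%), none above 5.06.

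Markers of other tissues ranged from mostly off to detected as often as genes in general or, for the 6 neuronal genes, more often. Of 12 hepatocyte genes 2 were members (16.7%, beside 69.3% of all genes), *SERPINA1*, which encodes alpha-1-antitrypsin (7.53 and 7.58), and *APOA1* with 1 of 2 probes (4.13 and 3.77). *ALB* had 0.43 and 0.23, and *TTR*, *APOB*, *APOH* and the fibrinogen genes *FGA*, *FGB* and *FGG* were not well above background. Of 9 endothelial genes 2 were members (22.2%), *CDH5* (5.39 and 5.20) and *VWF* (3.33 and 3.18), with *PECAM1*, *KDR*, *TEK* and *TIE1* off. Of 10 fibroblast genes 4 were members (40.0%), none above 5.56, and *COL1A2*, *COL3A1*, *LUM*, *PDGFRA* and *THY1* were between 0.00 and 0.13.

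Of 11 leukocyte genes with a probe 8 were members, at a median of 4.51, and this share of 72.7% lay near the 69.3% of all genes. The B cell gene *CD79A* had 9.39 and 9.58 with its only probe, and *MS4A1*, another B cell gene, was at 0.52 and 0.37. *PTPRC*, the pan-leukocyte gene CD45, had 2 of 5 probes on both arrays (4.81 and 4.78). Of 6 erythroid genes 3 were members, and *HBB*, the beta chain of adult hemoglobin, was not well above background (0.02 and 0.71). Of 6 neuronal genes 5 were members (83.3%), at a median of 6.17 beside 6.92 over all genes, with *SNAP25*, of synaptic vesicle release, at 9.10 on both. The olfactory receptors are known from the nasal epithelium. Of 357 olfactory receptor genes 57 (16.0%, beside 69.3% of all genes) were members, with a median level of 3.59, and 287 were not called on either array. *OR2H1* was the highest, at 10.14 and 10.26 with 1 of 2 probes.

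Genes of both the epithelial and the mesenchymal list were members. Of 18 epithelial genes 13 were members, a share of 72.2% near the 69.3% of all genes. Their median of 5.51 lay below the 6.92 over all genes detected. The keratins of simple epithelia led, *KRT18* at 12.70 and 12.74 over 2 probes, *KRT7* at 10.68 and 10.70 and *KRT8* at 8.15 and 8.19 over 3, whereas *KRT19* was at 4.48 and 4.41. The tight junction genes *TJP1* (9.21 and 9.15), *CLDN3* (7.36 and 7.31) and *CLDN4* (6.52 and 6.57) were members. Besides *CDH1*, the epithelial regulators *GRHL2* (0.52 and 0.93) and *ELF3* (0.00 on both) and the vesicle gene *RAB25* (0.09 and 0.11) were not well above background, and *EPCAM* was called on mock 2 only (2.31 and 3.00). The splicing regulators *ESRP1* (3.67 and 3.86) and *ESRP2* (4.95 and 4.98) were dim.

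Of 12 genes of mesenchymal transition 11 were members (91.7%, beside 69.3% of all genes), with a median of 5.41 beside 6.92. *VIM*, the intermediate filament vimentin, ranked 26 of all genes at 15.77 and 15.72. *CDH2*, which encodes N-cadherin, had 7.84 and 7.74 and *ZEB1*, a repressor of *CDH1*, 7.89 and 7.66, each over 2 probes. *TWIST2* had 6.76 on both and *ZEB2* 5.13 and 4.94 over 3 probes. *SNAI2* was not well above background (1.65 and 1.91), and *FN1* (3.34 and 3.05) and *SPARC* (3.74 and 3.54) were dim. On the transfected arrays *VIM* was at 14.87 with *miR-486-5p* and 15.25 with *miR-486-3p*.

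Of 14 endodermal transcription factor genes with a probe 7 were members, a smaller share than the 69.3% of all genes. *CEBPB* was the highest (10.76 and 10.73), followed by *GATA6* (8.43 and 8.36) and *SOX9* (7.99 and 7.70). *FOXA1* (4.42 and 4.32) and *FOXA2* (4.12 and 4.20), which open chromatin in endoderm, were dim, and *HNF4A*, *HNF4G*, *GATA4*, *PDX1* and *EHF* were not well above background.

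Of 24 NRF2 targets with a matched probe 23 were members (95.8%, beside 69.3% of all genes), but they were split between high and low. Genes of glutathione, thioredoxin and iron handling were high, with *GCLM*, a subunit of the enzyme that starts glutathione synthesis, at 12.35 and 12.77, *HMOX1*, heme oxygenase, at 10.81 and 10.76, *SRXN1* at 10.12 and 10.13, the cystine transporter *SLC7A11* at 9.35 and 9.21, and the ferritin gene *FTH1* at 13.41 and 13.37 over 3 probes. The pentose phosphate genes *TKT* (12.80 and 12.81), *TALDO1* (12.41 and 12.35) and *PGD* (10.31 and 10.42) were high as well. The peroxidase gene *GPX2* (3.00 and 3.69) and the export pump genes *ABCC2* (3.55 on both) and *ABCC3* (3.95 and 3.98) were dim, beside the *AKR* and *ALDH* genes given above. *GPX2* and *ALDH3A1* were more than 0.5 higher on mock 2.

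Of 16 other xenobiotic enzyme genes 10 were members (62.5%, beside 69.3% of all genes). *GSTP1*, a glutathione transferase, was at 13.48 and 13.44 and *MGST1*, of membranes, at 9.68 and 9.61. *CYP1B1* had 7.49 and 7.40 over 2 probes and *CYP1A1* 4.47 and 4.38, while *CYP2E1*, *CYP3A5*, *CYP4F11*, *CYP24A1*, *GSTT1* and *UGT2B7* were not well above background. Over the families, 22 of 53 CYP genes (41.5%), 2 of 9 UGT1A and UGT2B genes (22.2%), 8 of 12 aldo-keto reductases (66.7%) and 14 of 17 aldehyde dehydrogenases (82.4%) were members, beside 69.3% of all genes. *AKR7A2* (10.80 and 10.84) and *AKR1B1* (9.64 and 9.74) led the aldo-keto reductases.

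Of 24 receptor tyrosine kinase genes 19 were members (79.2%, beside 69.3% of all genes), with a median of 5.24 beside 6.92. *AXL*, the receptor of GAS6, was by far the brightest at 12.65 on both mock arrays, followed by *MET*, the receptor of HGF, at 11.01 and 10.97. *MERTK* (level 8.11), *ERBB2* (7.92 and 7.86), *FGFR1* (7.77 and 7.57) and *EPHA2* (7.61 on both) came next. *EGFR* had probes at 7.07, 4.26 and 2.92 on mock 1 and at 6.96, 4.24 and 2.91 on mock 2, so that its level of 4.73 is uncertain. *KIT*, *ALK* and *ROS1* were not well above background. With every probe required, 11 of the 24 were members.

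Of 15 growth factor genes 9 were members (60.0%, beside 69.3% of all genes). The EGFR ligands *TGFA* (8.60 and 8.66, 1 of 2 probes) and *HBEGF* (6.31 and 6.34) were members, whereas *AREG*, *EREG* and *EGF* were not. *GAS6* was at 5.01 and 5.23, and *HGF* was not well above background. *IGF2*, a growth factor of fetal tissues, had 1 probe at 12.71 and 12.86 and another at 5.31 and 5.32, and *IGF1* was off.

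Of 22 cytokine and chemokine genes 11 were members, a smaller share than the 69.3% of all genes. *GDF15*, a stress-induced cytokine, was the highest at 10.10 and 10.08, followed by *TGFB1* (8.79 and 8.86), the neutrophil chemokine *CXCL2* (level 8.22) and *LIF* (8.12 and 8.13, 1 of 2 probes). *CXCL8* (0.08 on both), *IL6* (0.02 and 0.46), *IL1A*, *IL1B*, *TNF*, *CCL5*, *CCL20* and *CXCL10* were not well above background. Of 15 interferon-stimulated genes 12 were members (80.0%), with *ISG15* (10.97 and 10.96) and *IRF7* (8.76 and 8.81) highest and *OAS1*, *RSAD2* and *IFI44L* off.

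Genes of class I antigen presentation were bright and those of class II were low. *HLA-E* had 13.31 and 13.37, *B2M*, the class I light chain, 11.26 and 11.20 and the peptide transporter *TAP1* 10.63 and 10.64. The *HLA-E* values are means of probes that lay at 10.79 and 15.82 on mock 1. *CD74*, the class II invariant chain (0.00 on both), and *HLA-DRA* (0.54 and 0.00) were not well above background, and *HLA-DPA1* was dim (4.06 and 4.28). Of the checkpoint ligands, *CD274*, which encodes PD-L1, was dim with 1 of 2 probes (3.39 and 2.70) and *PDCD1LG2* off. *CD47* (10.57 and 10.49), *NECTIN2* (9.69 and 9.73) and *CD276* (7.84 and 7.94) were members. On mock 1 the *NECTIN2* probes were at 12.02 and 7.35 and the *CD276* probes at 4.57 and 11.10, so these levels depend on which probe is read.

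Of 11 genes used by viruses to enter cells 9 were members (81.8%, beside 69.3% of all genes). *DPP4*, the receptor of MERS coronavirus, was not well above background (2.23 and 2.25), and the protease gene *TMPRSS2* was dim (3.90 and 4.25). *CTSL*, a lysosomal protease, was at 10.18 and 10.15.

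Of 11 cancer-testis genes with a probe 6 were members (54.5%, beside 69.3% of all genes). These genes are normally silent outside the germ line. *MAGEA4* had 11.23 and 11.21, *MAGEA10* 9.95 and 9.97 and *PRAME* 8.88 and 8.98 with 1 of 2 probes. *GAGE1* was at 5.76 and 5.93, and *MAGEC1*, *MAGEC2*, *SSX1*, *PAGE1* and *BRDT* were not well above background. On the transfected arrays *MAGEA4* was at 12.47 with *miR-486-5p* and 12.15 with *miR-486-3p*.

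Large families differed in how many of their genes were detected, beside 69.3% of all genes. Of 54 keratin genes 24 were members (44.4%), with *KRT81*, a hair keratin, highest at 13.10 and 13.21, ahead of *KRT18* and of *KRT10* (11.35 and 11.22). Of 23 claudin genes 15 were members (65.2%), most of them dim with a median of 3.56, and *CLDN1* was at 8.34 and 8.18. Of 14 mucin genes 6 were members (42.9%), led by *MUC4* (8.30 and 8.32, 3 of 4 probes). Of 44 collagen genes 23 were members (52.3%), with *COL18A1* (10.80 and 10.79) and *COL6A1* (10.03 and 10.14) highest. Of 27 integrin genes 22 were members (81.5%), with *ITGA6* (10.10 and 10.05), *ITGA3* (9.79 and 9.91) and *ITGAV* (9.19 and 9.13) highest. Families named for other tissues also had members, 46 of 88 keratin-associated protein genes with *KRTAP1-4* at 11.42 and 11.49, 12 of 25 bitter taste receptors with none above 6.83, and 8 of 33 beta defensins with none above 5.52.

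The HOX genes, which specify position along the body axis, differed between their 4 clusters. In the HOXB cluster 9 of 10 genes were members, with a median of 7.79 and *HOXB2* (10.74 and 10.66), *HOXB4* (10.52 and 10.62) and *HOXB9* (10.54 and 10.36) highest. In HOXC 7 of 9 were members, a share of 77.8% not far from that of all genes, with a median of 8.63 and *HOXC6* at 10.88 and 10.78. In HOXA 8 of 11 were members (72.7%), near the share of all genes, with a median of 6.83 and *HOXA7* highest at 10.16 and 10.07. In HOXD 4 of 9 were members (44.4%), and the brightest, *HOXD13*, had 5.53 and 5.41. None of the HOXD genes thus reached the median of the genes detected, 6.92.

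**Figure D3:**
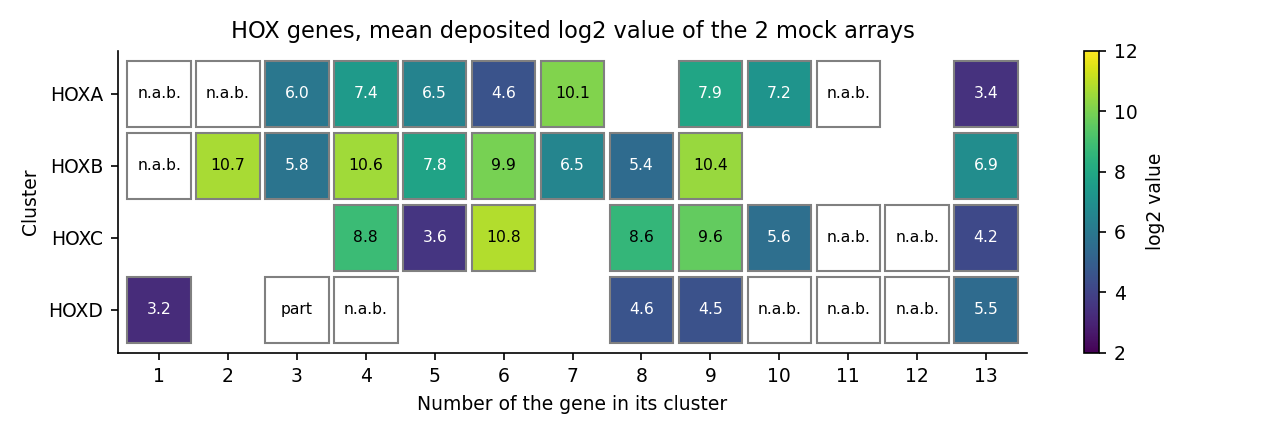
Mean deposited log2 value of the 2 mock arrays (color and number) of each HOX gene, by cluster (vertical axis) and by number of the gene in its cluster (horizontal axis), where n.a.b. marks genes not well above background on either array and part a gene called on 1 of them. HOXB and HOXC hold the bright genes and no HOXD gene lies above 5.47.

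Probes without a gene name were less often members than those of named genes. Of the 27097 such probes, 9239 were members. The share was 27.3% of 10719 probes for annotated long noncoding loci, 35.4% of 9747 probes listed by an Ensembl transcript and 35.1% of 1249 probes for assembled transcripts, beside 66.7% of the 31104 probes of named genes. Their median levels, 4.18, 5.03 and 4.68, lay below the 6.89 of named probes. Which genes they measure was not analysed here.

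CpG islands are stretches rich in CpG that mark the starts of most widely expressed genes, and CpG content is given as the observed over the expected number in the same 300 bases. Of the array's genes, 16975 had a window in the RefSeq table, and the first listed start of each was used. The median CpG ratio was 0.82 for 12057 genes detected on both mock arrays and 0.30 for 4555 on neither, with 0.58 over all 27305 genes of the table. A ratio of 0.6 or more was found in 77.3% of the former and 27.6% of the latter. When the genes detected were split by level into 5 equal groups, the share was 54.4% in the lowest group, then 74.7%, 81.9% and 86.8%, and 88.6% in the highest. This relation is across genes, which are not independent replicates, and the lowest group also holds the dimmest calls.

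Short motifs were counted on both strands of the windows. The GC box GGGCGG, bound by Sp1, was found in 66.5% of the genes detected, 29.9% of those not detected and 44.6% of all windows. The ETS-type motif CCGGAAG was found in 17.7%, 3.73% and 10.7%, and the TATA box TATAAA in 6.75% of the genes detected and 17.4% of those not detected, with 11.95% over all windows. The NF-Y box CCAAT was nearly even, at 36.4%, 35.4% and 35.7%, and the core of the antioxidant response element, TGACNNNGC, was found in 14.9% of the genes detected and 12.7% of those not detected, with 13.6% over all windows. The GC box and the ETS-type motif each contain a CpG, so they are not independent of the CpG ratio. The histone gene windows held TATAAA in 67.8% and CCAAT in 84.7% of 59 cases, and 35.5% of 62 ribosomal protein windows held CCGGAAG. A match is a description of these letters and not evidence of binding. Of the windows printed above, the second *CDKN2A* start and *VIM* held GGGCGG, *ELF3* held TATAAA and CCAAT, and *ALB* held CCAAT.

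**Figure D4:**
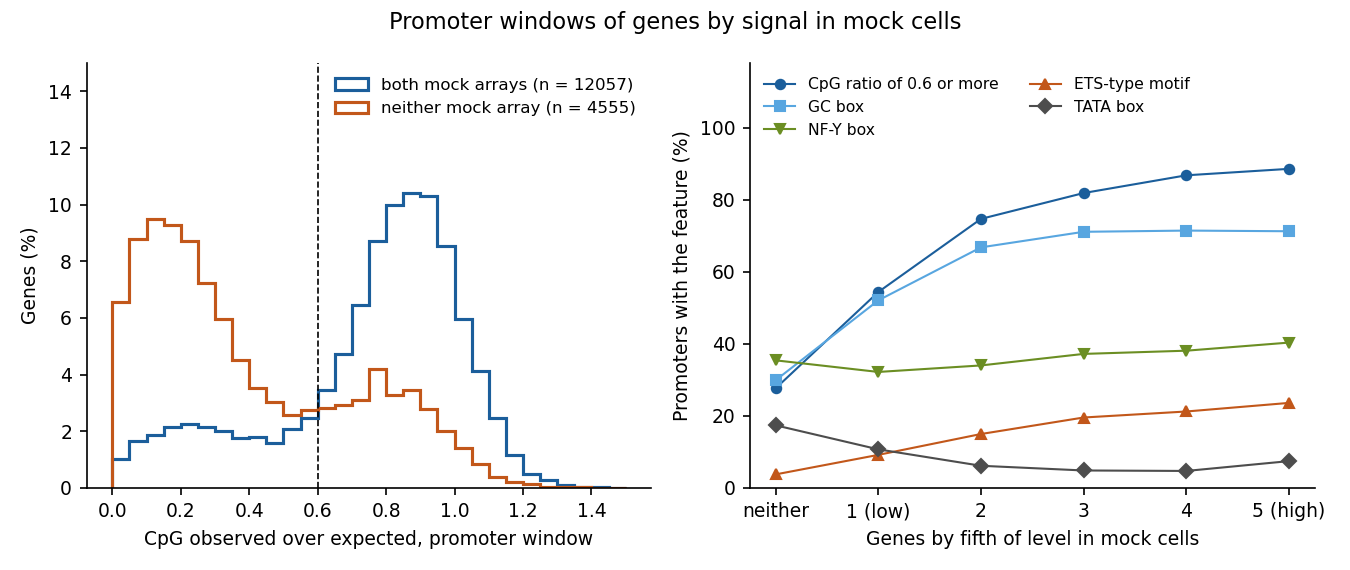
Left, distribution of the CpG observed over expected ratio (horizontal axis) over genes (vertical axis, percent) detected on both mock arrays or on neither, with 0.6 as a dashed line. Right, share of promoter windows (vertical axis, percent) with each feature for genes on neither array and for 5 groups of the genes detected by level (horizontal axis), where the CpG share is 27.6% for the former and 88.6% in the highest group and the TATA box share 17.4% and 7.42%.

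The mock arrays were compared with each other gene by gene. Over the 15558 genes, mock 1 minus mock 2 had a median of 0.01 and a standard deviation (SD) of 0.16, in log2 units, and the values of both arrays had a Pearson correlation across genes of 0.998. The range from the 5th to the 95th percentile of the differences ran from -0.24 to 0.25. By more than 0.5, 133 genes (0.855%) were higher on mock 1 and 119 (0.765%) on mock 2, and by more than 1, 6 and 4. With normexp background correction, which compresses dim signals, 9 and 11 genes were past 0.5. These counts have no test behind them, since the mock arrays are the only replicates of the design, and whether the differences come from the cultures or from the assay cannot be told apart.

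Differences were concentrated at low levels. In the lowest 20% of the genes detected by level the SD was 0.27 and 6.68% were past 0.5 in either direction, and in the next 20% these were 0.17 and 0.707%. In the highest 20% the SD was 0.09 and 0.161% were past 0.5. Of the 252 genes past 0.5, 208 were in the lowest 20%, and 12 of the 5521 genes with a level of at least 8 were among them. A member probe spotted 10 times had a median SD over its spots of 0.05 within either mock array, and the difference between the mock arrays over 284 such probes had an SD of 0.07 and ran from -0.30 to 0.35. Of these probes 33.1% differed by more than 3 times the error of their spot means. The 7 E1A spike-in controls differed by -0.05 to 0.04, and the 7 dimmer ERCC controls by -0.43 to -0.03 with a median of -0.14, all lower on mock 1. The median difference was between 0.00 and 0.02 in each of 4 bands of the array's rows and of its columns.

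**Figure D5:**
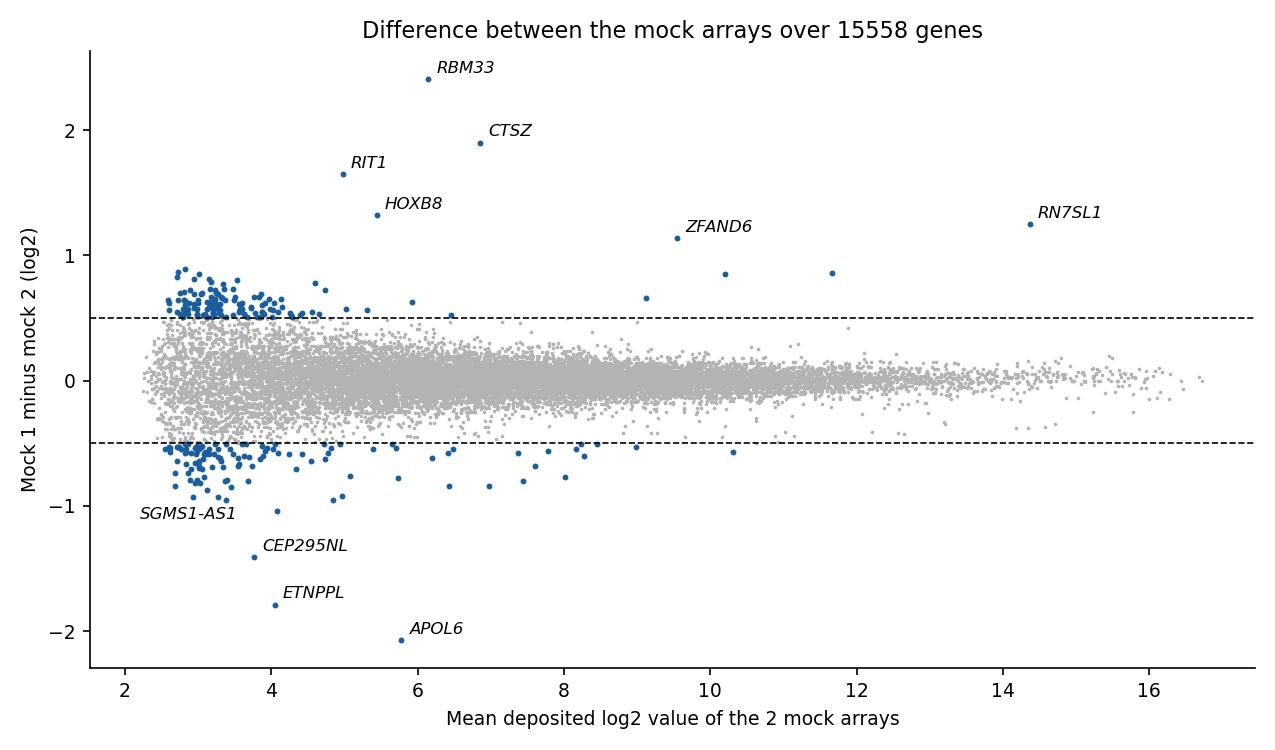
Mock 1 minus mock 2 (vertical axis, log2) against the mean level of the mock arrays (horizontal axis, log2) for 15558 genes, with the 252 genes past 0.5 (dashed lines) in blue and those past 1 named. The spread narrows from an SD of 0.27 in the lowest 20% of genes by level to 0.09 in the highest 20%, and *RN7SL1* and *ZFAND6* stand out among bright genes.

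The largest difference belonged to *RBM33*, an RNA-binding protein gene, and came from 1 spot. Its 3 probes had 12.84, 4.51 and 4.70 on mock 1 and 5.94, 4.25 and 4.63 on mock 2, and the scanner software had marked the spot of 12.84 as an outlier. Without probes that held an outlier spot the difference was 0.17 in place of 2.41. Among genes higher on mock 1, next came *CTSZ*, a lysosomal protease, with 7.80 and 5.90, and *RIT1*, a small GTPase, with 5.80 and 4.15. *HOXB8* had 6.10 and 4.78. These were measured with 1 probe of 1 spot each.

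Abundant noncoding RNAs were also among the genes higher on mock 1. *RN7SL1*, the RNA of the signal recognition particle, had 14.99 and 13.74, and *RNA18SN5*, the 18S ribosomal RNA, 12.09 and 11.23, but *RNA28SN5* differed by 0.03. On the transfected arrays *RN7SL1* was at 15.26 and 14.98 and *RNA18SN5* at 12.42 and 12.91, so that mock 2 was the lowest of the 4 for both. *ZFAND6*, a zinc finger protein gene, had 10.12 and 8.98, with 10.45 and 10.41 on the transfected arrays. *CIMIP6* (3.26 and 2.37), *PHEX* (3.43 and 2.58) and the antisense RNA *TSPOAP1-AS1* (3.16 and 2.29, 1 of 3 probes) were dim, and a second probe of *TSPOAP1-AS1*, called on mock 2 only, was lower on mock 1, at 2.04 and 2.88. Of these 10 genes, mock 2 lay below both transfected arrays in 9, and mock 1 lay above both in 3.

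Of the genes higher on mock 2, *APOL6*, an apolipoprotein L gene, had the largest difference, with 4.74 on mock 1 and 6.81 on mock 2 in 1 member probe of 3. It was at 4.41 with *miR-486-5p* and 6.41 with *miR-486-3p*, so that each mock array was close to a different transfected array. *ETNPPL*, a phospholyase, had 3.15 and 4.94, *CEP295NL* 3.06 and 4.47. They were at 3.37 and 2.52 with *miR-486-5p* and at 4.81 and 4.78 with *miR-486-3p*, the same order as for *APOL6*. *SGMS1-AS1* had a level of 4.08 with a difference of -1.04. The chloride channel gene *CLCN1* (4.37 and 5.32), the connexin gene *GJD3* (2.91 and 3.86, 1 of 2 probes), the serotonin receptor gene *HTR6* (2.81 and 3.74), *SEC14L5* (2.47 and 3.40) and the muscle gene *ANKRD2* (2.68 and 3.55) were dim. *ARHGEF25*, a guanine nucleotide exchange factor gene, had 1 probe at 5.48 and 5.82 and another at 3.53 and 5.03.

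Of the 20 genes with the largest differences 10 were in the lowest 20% by level. Of all 252 genes past 0.5, 242 rested on 1 member probe, and in 0 of the 10 with several were all member probes past 0.5 in the same direction. Mock 1 alone lay outside the range of the other 3 arrays for 81 of the 252 genes, mock 2 alone for 85, both lay at the ends for 42, and neither for 44. The transfected arrays are among the other 3, so these counts cannot tell whether a mock array was the one apart. Of the 10 genes named as higher on mock 2, mock 2 lay above both transfected arrays in 7 and mock 1 below both in 5. Of the 37 lists, none had a median difference beyond 0.18 in either direction, and 29 had no member past 0.5. A count of lists cannot be set against the 0.855% and 0.765% of all genes past it in each direction. Of 19 receptor tyrosine kinase genes detected 2 were past 0.5 higher on mock 1, and of 23 NRF2 targets 2 were higher on mock 2. No other list had more than 1 such member. *TPPP3*, of ciliated cells, *DCN*, of fibroblasts, and *CD274* were among the list members past 0.5 higher on mock 1, all at a level under 4.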

How the data were processed

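Total RNA of 4 samples was labeled with Cy3 and hybridized to 1-color Agilent arrays. Per the file headers, the authors scanned them with Agilent Feature Extraction 12.1.1.1, whose intensity of each spot is already corrected for background. A second deposited table holds the authors' log2 values. They had correlations with the log2 intensity of 0.9999 on both mock arrays, quartiles of 0.15, 2.76 and 6.28, and 14.6% and 14.3% of values listed at 0. Its normalization is not given in the sources used here.

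Levels are means of the deposited log2 values. A probe spotted several times was called where at least 0.5 of its spots were well above background. Genes were named through RefSeq accessions (GRCh38.p14), which matched 31104 of 33080 such probes, and 14 of 451 listed genes had no matched probe and were not analysed here. The 15 highest genes, the 10 largest differences in each direction and the defining members of lists and families were named, apart from genes that are not reported here. The members, lists and families were chosen with earlier results of these data known. The per-gene step was tested on simulated data. Python 3.11.15 with pandas 2.3.3 and R 4.3.3 with limma 3.58.1 (normexp, offset 50) were used. Alternatives were other scalings, flags, probe rules and a limit of 1.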

Additional observations from a re-analysis of the deposited data

How the results depend on the processing

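The number of genes well above background on both mock arrays was between 14157 and 17927 under all alternatives, and between 15767 and 15869 with 1 mock array left out. The number on neither was 2889 in place of 6367 when the weaker flag for a signal above background (gIsPosAndSignif) was used, and between 6570 and 6672 with 1 mock array left out. Genes past 0.5 numbered 9 (mock 1 higher) and 11 (mock 2 higher) with normexp correction, 1121 and 1081 with no filter on dim probes, 718 and 668 with the weaker flag, and 6 and 4 at a limit of 1, in place of 133 and 119, and the SD of 0.16 became 0.0847, 0.33 and 0.292 under the first 3 of these. The offset of 50 compresses dim signals by construction, and the other 2 settings admit dimmer probes. Scaling to the 75th percentile or the median, the brightest probe, and leaving out probes with an outlier spot or those not called on all 4 arrays kept these counts within 1.5 times. Requiring every probe of a gene to be well above background, an alternative chosen after seeing the data, gave 113 and 82, and it lowered the member counts of 5 lists by more than 1.5 times, the alveolar type II, alveolar type I, fibroblast, hepatocyte and receptor tyrosine kinase lists. The weaker flag raised those of the ciliated (5), neuroendocrine (5), striated muscle (6) and endoderm transcription factor (11) lists by as much, and probes called on all 4 arrays left 1 neuroendocrine gene. Of 538 recomputed positions by level of 50 genes, 199 moved by more than the SD between the mock arrays, among them 43 of 50 with no filter on dim probes, 37 of 50 with the weaker flag and 27 of 50 with the brightest probe, so ranks and top 20% placements are approximate. With 2 mock arrays and 1 spot for most probes, differences of dim genes cannot be separated from assay noise. No paired analysis was possible because the mock arrays are the only group with more than 1 array.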
